A study of Gallus gallus with 5 samples.

Results

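The HOXA cluster genes HOXA2, HOXA4, HOXA5, HOXA6 and HOXA7 were followed in chick somite progenitors that had been grafted into a young host. These are the 5 genes named by the rule, of 6939 genes that carry a name in every one of the 4 libraries, and all 5 had a row in each library. Hox genes encode homeodomain transcription factors that give cells their position along the head to tail axis. Within a cluster they are switched on in the order in which they lie, from the 3′ end, whose genes act near the head, to the 5′ end, whose genes act towards the tail, and in the primitive streak this progression tracks the age of the progenitors. In the chicken RefSeq annotation (GRCg7b) the genes of the cluster that are described here lie, from 3′ to 5′, in the order HOXA2, HOXA3, HOXA4, HOXA5, HOXA6, HOXA7, HOXA9, HOXA10, HOXA11 and HOXA13.

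Donor tissue came from the somite progenitor region of the primitive streak of transgenic embryos expressing eGFP, at Hamburger and Hamilton stage HH4 (20 hr of incubation) or HH8 (30 hr), and was placed in the same region of wild-type HH4 hosts in New Culture. The homochronic grafts (HH4-HH4) and the heterochronic grafts (HH8-HH4) were each taken at 0 hr, which the series description gives as 30 min, and at 3 hr. The dissected piece held graft and surrounding host tissue, several grafts were pooled per sample, and single embryos cannot be told apart in the pool. A barcode was counted as a graft cell with 3 or more eGFP UMIs (unique molecular identifiers, each standing for 1 captured transcript) and as a host cell with 0, and had to hold at least 2000 UMIs. The HH4-HH4 libraries gave 720 graft and 1764 host cells at 0 hr and 72 graft and 181 host cells at 3 hr. The HH8-HH4 libraries gave 2029 graft and 1726 host cells at 0 hr and 116 graft and 232 host cells at 3 hr, so that 6840 of 8039 barcodes were used.

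Each condition was 1 library. The HH4-HH4 0 hr sample was deposited as replicates 1 and 2, described as collected apart, but these shared 2755 barcodes and were counted as 1 library, of which the replicate 2 table was used because the genes of replicate 1 carry identifiers that matched 0 symbols. No test between conditions was therefore possible, and the intervals below cover counting error only, not the spread between embryos. Levels are UMIs summed over the cells of a group per 1000000 UMIs of that group (CPM), with exact Poisson 95% intervals. Median depth of the cells used lay between 8838 UMIs (HH8-HH4 0 hr graft) and 47194 UMIs (HH4-HH4 3 hr graft), and any pair of the 4 libraries shared at most 2 barcodes. HH8-HH4 3 hr stood apart in that 409 of its 943 barcodes reached 2000 UMIs.

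The HH8 grafts carried all 5 genes at high levels, with HOXA7 far above the rest. At 0 hr HOXA7 stood at 2434 CPM (2412 to 2457), HOXA4 at 162 CPM (156.5 to 168), HOXA6 at 139 CPM (134 to 145), HOXA5 at 131 CPM (125.5 to 136) and HOXA2 at 77.4 CPM (73.5 to 81.5). The order of levels was HOXA7, HOXA4, HOXA6, HOXA5 and HOXA2 at both times, and in it HOXA6 and HOXA5 were the neighbours whose intervals overlapped. HOXA7 alone made up 82.7% of the UMIs of the 5 genes at 0 hr and 82.0% at 3 hr. These counts come from the 3′ ends of transcripts, so a level per transcript is not divided by length. It does depend on where the annotation ends a gene and on reads shared with neighbouring or overlapping transcripts, which was not tested.

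**Figure D1:**
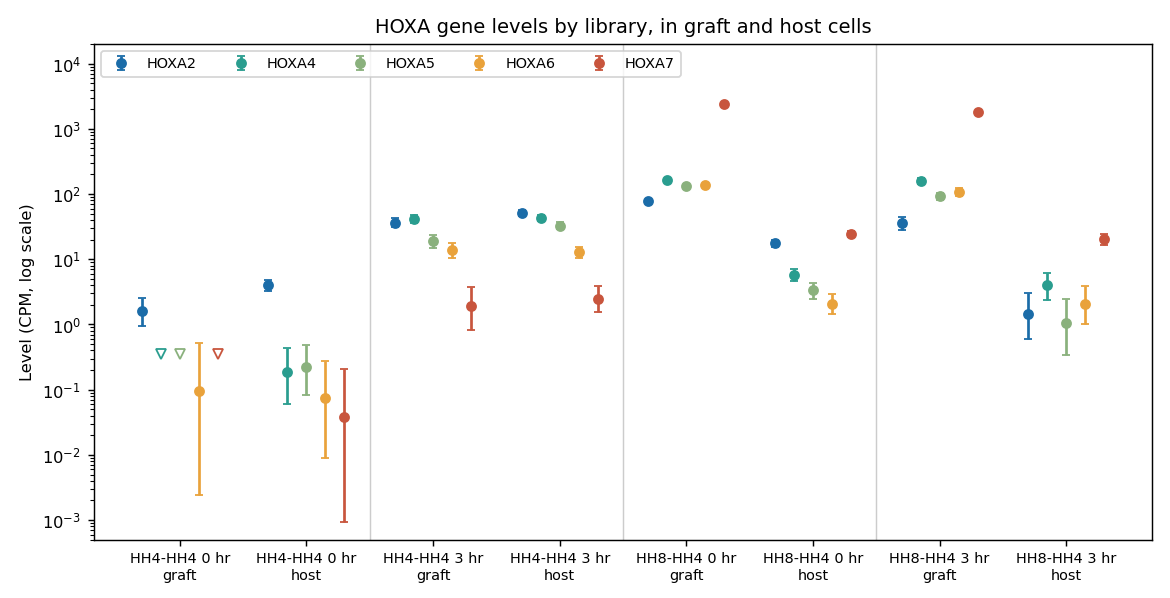
Levels of the 5 HOXA genes (CPM, log axis) in graft and host cells of the 4 libraries, with exact Poisson 95% intervals as bars and open triangles at the upper limit where no UMI was found. HOXA7 is the highest point in both HH8 grafts (2434 and 1794 CPM) and the lowest gene with a UMI in both HH4-HH4 3 hr groups (1.89 and 2.5 CPM).

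The grafts were sequenced to compare the states of donor cells of either age with those of the host, and the first comparison set HH8 donor cells against the younger tissue around them. HOXA2, which in vertebrates patterns the hindbrain and the cranial neural crest, stood at 77.4 CPM in the graft and 17.6 CPM in the host at 0 hr, a ratio of 4.41 (3.88 to 5.02). HOXA4, a gene of the neck region of the axis in mouse, stood at 162 CPM against 5.73 CPM, a ratio of 28.3 (23 to 35.2). HOXA5, which in mouse patterns the border of neck and thorax, stood at 131 CPM against 3.33 CPM, a ratio of 39.2 (30.0 to 52.3). From HOXA2 to HOXA4 the intervals were apart, and from HOXA4 onwards those of neighbouring genes overlapped. HOXA6, its 5′ neighbour and in mouse also a gene of the neck to thorax border, stood at 139 CPM against 2.10 CPM, a ratio of 66.4 (47.4 to 96.1). HOXA7, a gene of the upper trunk in mouse, stood at 2434 CPM against 24.5 CPM, a ratio of 99.2 (89.9 to 110). Among cells low in HINTW, which marks a set of embryos in the pool and is described further on, the ratios were 11.2, 39.4, 134, 92.2 and 93.0 in cluster order, with no steady rise. All 5 were more than 2-fold higher in the graft on the log2 scale with 1 CPM added, where 3.94% of the 4386 genes with at least 100 UMIs were. HOXA7 stood at 0.0376 CPM in the host of HH4-HH4 at 0 hr, against 24.5 CPM here. The part of transcripts set free from HH8 cells in the ratios of graft to host was not tested at either time.

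At 3 hr all 5 genes were again more than 2-fold higher in the HH8 graft than in the host around it, against 3.08% of genes. The HH8 graft held HOXA2 at 35.9 CPM, HOXA4 at 159 CPM, HOXA5 at 92.1 CPM, HOXA6 at 108 CPM and HOXA7 at 1794 CPM. The ratios to the host were 24.5 (11.4 to 62.8) for HOXA2, 39.9 (25.2 to 67.0) for HOXA4, 88.0 (37.1 to 274) for HOXA5, 51.4 (27.5 to 109) for HOXA6 and 88.3 (72.2 to 109) for HOXA7. The intervals of all neighbouring genes overlapped at 3 hr, and HOXA2 lacked the 100 UMIs that the share of genes is counted over.

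In the HH8 graft HOXA4 was at a similar level at both times and the other 4 genes were lower at 3 hr. HOXA4 was at 0.979 times its 0 hr level (0.876 to 1.09). HOXA6 was at 0.773 times (0.677 to 0.881), HOXA7 at 0.737 times (0.714 to 0.761) and HOXA5 at 0.706 times (0.611 to 0.812). HOXA2 was the gene of the 5 past 2-fold, at 0.464 times (0.367 to 0.579), where 2.34% of genes were 2-fold lower and 0 of the 5 were 2-fold higher (2.88% of genes). With 10 CPM added before the logarithm 0 of the 5 genes passed 2-fold, and with graft cells taken from 1 eGFP UMI 3 did. Cell type markers differed between the same grafts, MSX1 standing at 1811 and 464 CPM, CDX4 at 1103 and 556 CPM, MIXL1 at 56.0 and 279 CPM, CHRD at 22.0 and 186 CPM and MEOX1 at 5.77 and 72.7 CPM at 0 and 3 hr, and their part in the result was not tested. A sum over cells does not tell fewer cells with a transcript from fewer transcripts per cell.

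The HH4 grafts at 0 hr had almost none of these transcripts. HOXA4, HOXA5 and HOXA7 gave 0 UMIs in 720 cells, where 3 UMIs would be 0.285 CPM. HOXA6 gave 1 UMI (0.0948 CPM) and HOXA2 gave 17 UMIs (1.61 CPM, 0.939 to 2.58). The HH8 graft was therefore at least 463-fold higher for HOXA4, at least 373-fold higher for HOXA5 and at least 6959-fold higher for HOXA7. These are the lower limits of the intervals. HOXA2 was 48.0-fold higher (29.9 to 82.7) and HOXA6 1468-fold higher (263 to 58017). All 5 genes were past 2-fold, against 4.88% of genes.

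By 3 hr the HH4 grafts carried all 5 genes, most strongly those of the 3′ side. HOXA2 reached 36.2 CPM (30.7 to 42.4) and HOXA4 41.4 CPM (35.5 to 48.0). HOXA5 reached 18.9 CPM, HOXA6 14 CPM and HOXA7 1.89 CPM (8 UMIs). The order of levels was HOXA4, HOXA2, HOXA5, HOXA6 and HOXA7, in which HOXA4 and HOXA2, and HOXA5 and HOXA6, had overlapping intervals. All 5 were more than 2-fold higher than at 0 hr, against 2.04% of genes with at least 100 UMIs, a number that HOXA2 and HOXA4 alone reached here. The change was 22.5-fold for HOXA2 (13.6 to 39.6) and 147-fold for HOXA6 (25.4 to 5913). By the lower limits of the intervals it was at least 117-fold for HOXA4, 52.9-fold for HOXA5 and 4.26-fold for HOXA7. UMIs of the 2 most 5′ genes were concentrated in single cells. HOXA6 was found in 16 of 72 cells, of which 1 held 29 of its 59 UMIs. HOXA7 was found in 3 cells, of which 1 held 6 of its 8 UMIs. Without the cell with most UMIs, HOXA6 was at 8.16 CPM and HOXA7 at 0.544 CPM. HOXA7 was then less than 2-fold above its 0 UMIs at 0 hr, with 1 CPM added. Markers of the HH4 grafts differed between 0 and 3 hr as well. MIXL1 stood at 1479 and 393 CPM, EOMES at 430 and 56.3 CPM, ADMP at 180 and 0.473 CPM and CDX4 at 35.1 and 383 CPM. Their part in the result was not tested.

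In the host cells of HH4-HH4 the levels were also higher at 3 hr. HOXA2 went from 4.02 CPM to 51.5 CPM, HOXA4 from 0.188 to 42.9 CPM, HOXA5 from 0.225 to 32.9 CPM, HOXA6 from 0.0751 to 12.7 CPM and HOXA7 from 0.0376 to 2.5 CPM. All 5 were more than 2-fold higher at 3 hr, against 3.03% of genes, and 4 of them had 100 UMIs. The markers of these hosts differed too, MIXL1 standing at 1642 and 8.0 CPM, EOMES at 338 and 16.0 CPM, ADMP at 160 CPM and 0 UMIs, GATA6 at 63.35 and 1.75 CPM and CDX4 at 48.6 and 525 CPM at 0 and 3 hr, and their part in the result was not tested. A single cell held 8 of the 20 HOXA7 UMIs at 3 hr, and without it HOXA7 was at 1.53 CPM. In host cells thinned to 2000 UMIs each, too few HOXA7 UMIs were left and its log2 ratio was -0.36 in place of 1.75. Levels at 3 hr fell in cluster order, HOXA2, HOXA4, HOXA5, HOXA6 and HOXA7, with overlapping intervals for HOXA2 and HOXA4 alone among the neighbours. This order of the pooled cells held in neither set of embryos, as HOXA4 (61.7 CPM) lay above HOXA2 (38.45 CPM) in cells low in HINTW and HOXA5 (31.0 CPM) above HOXA4 (24.0 CPM) in cells high in it.

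Within the HH4-HH4 libraries 0 of the 5 genes differed by 2-fold between graft and host, at 0 hr (0.748% of genes in either direction) or at 3 hr (2.11% of genes), with 1 of them at 100 UMIs at 0 hr and 4 at 3 hr. HOXA4, HOXA5, HOXA6 and HOXA7 lay between 0 and 0.225 CPM in both groups at 0 hr. With 1 CPM added they could not pass 2-fold, so the 0 hr count does not bear on them. At 3 hr the graft was at 0.703 times the host level for HOXA2 (0.580 to 0.849), 0.966 times for HOXA4 (0.801 to 1.16), 0.576 times for HOXA5 (0.443 to 0.743), 1.10 times for HOXA6 (0.781 to 1.52) and 0.758 times for HOXA7 (0.289 to 1.80). Pooled graft and host cells of the same stage were thus within a factor of 2 for HOXA2, HOXA4, HOXA5 and HOXA6, intervals included, except for the HOXA5 bound of 0.443. Among cells high in HINTW, HOXA2 was at 0.503 times (0.396 to 0.635) and HOXA5 at 0.472 times (0.329 to 0.667). Among cells low in it they were at 1.22 times (0.873 to 1.69) and 0.903 times (0.602 to 1.32). At 0 hr HOXA2 was at 0.401 times the host level (0.225 to 0.673) on 17 against 107 UMIs, a value that passed 2-fold without the CPM added. It was at 0.293 times (0.0931 to 0.706) among cells low in HINTW. Among cells high in HINTW it was at 2.27 times (0.688 to 9.66), on 12 against 4 UMIs.

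By 3 hr the HH8 and HH4 grafts had similar HOXA2 levels and differed in the other 4 genes. HOXA2 stood at 35.9 CPM in the HH8 graft and 36.2 CPM in the HH4 graft, a ratio of 0.991 (0.750 to 1.30). The ratio was 3.83 for HOXA4 (3.19 to 4.62), 4.87 for HOXA5 (3.75 to 6.37) and 7.71 for HOXA6 (5.79 to 10.4), with overlapping intervals between HOXA4 and HOXA5 and between HOXA5 and HOXA6. HOXA7 was 947-fold higher in the HH8 graft (480 to 2196). Thus 4 of the 5 genes were past 2-fold in the HH8 graft, against 3.63% of genes. HOXA7 made up 1.68% of the UMIs of the 5 genes in the HH4 graft at 3 hr and 82.0% in the HH8 graft.

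**Figure D2:**
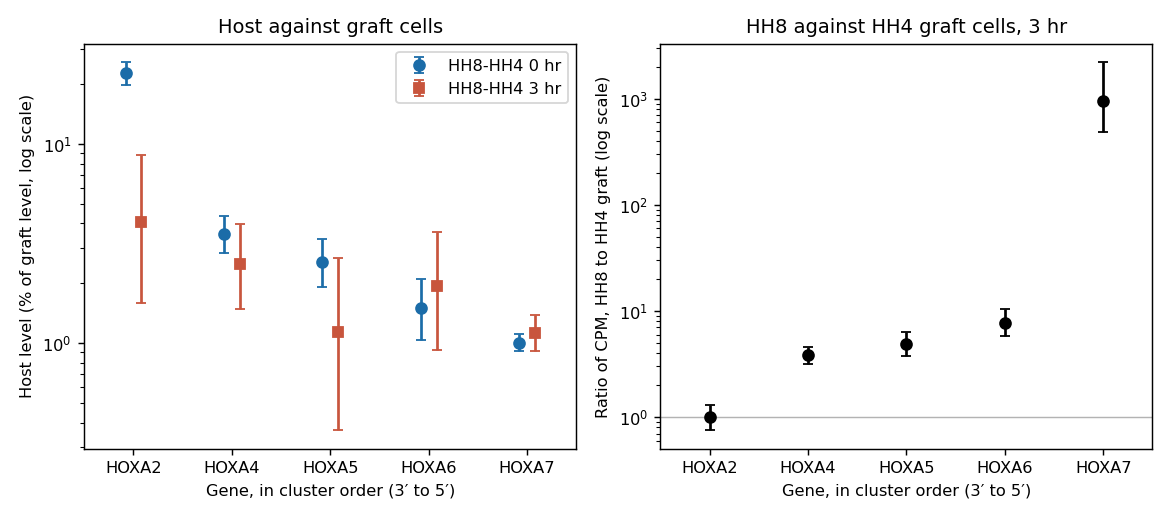
Host level as a percent of the graft level in the 2 HH8-HH4 libraries (left) and the ratio of HH8 to HH4 graft levels at 3 hr (right), both on log axes, for the 5 genes in cluster order, with 95% counting intervals. Host levels at 0 hr fall from 22.7% for HOXA2 to 1.01% for HOXA7, and the ratio of the grafts at 3 hr climbs from 0.991 to 947.

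Between the hosts beside HH8 and HH4 grafts, HOXA7 was higher beside the HH8 graft at both times, while the other 4 genes were higher there at 0 hr and lower at 3 hr. At 0 hr all 5 genes were more than 2-fold higher beside the HH8 graft, where 0.715% of genes with at least 100 UMIs were, and 2 of the 5, HOXA2 and HOXA7, had 100 UMIs. Their levels there were 17.6 CPM for HOXA2, 5.73 CPM for HOXA4, 3.33 CPM for HOXA5, 2.10 CPM for HOXA6 and 24.5 CPM for HOXA7, against 0.0376 to 4.02 CPM beside the HH4 graft. With 10 CPM added 1 of the 5 stayed past 2-fold. Set against the graft of the same library, the host held 22.7% of the graft level for HOXA2 (19.9 to 25.8), 3.54% for HOXA4, 2.55% for HOXA5, 1.51% for HOXA6 and 1.01% for HOXA7 (0.911 to 1.11). HOXB8 and HOXA9, both high in the HH8 graft, lay at 1.27% and 1.5%, and HOXA3, the cluster neighbour of HOXA2, at 21.0%.

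HOXA7 in host cells was spread thinly. In HH8-HH4 0 hr, 309 of 1726 host cells (17.9%) had a HOXA7 UMI, 268 of these had exactly 1, and 1 cell had 32. In HH4-HH4 0 hr, where the graft gave 0 UMIs of the gene, 1 of 1764 host cells (0.0567%, exact binomial interval up to 0.315) had one, at a median of 14574 UMIs against 9039. In HH8-HH4 3 hr, 61 of 232 host cells had a HOXA7 UMI, 47 of them exactly 1, and 1 cell held 24 of the 97 UMIs. The part of transcripts set free from HH8 cells, and of graft cells with no captured eGFP, was not tested, and these shares are not read as expression.

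At 3 hr the host beside the HH8 graft held 4 of the 5 genes at more than 2-fold lower levels than the host beside the HH4 graft (3.35% of genes were lower), and HOXA7 at a higher level (3.14% of genes were higher). HOXA2 stood at 1.47 CPM against 51.5 CPM, a ratio of 0.0285 (0.0114 to 0.0592). HOXA5 stood at 1.05 against 32.9 CPM, HOXA4 at 3.98 against 42.9 CPM and HOXA6 at 2.09 against 12.7 CPM. Of the 10 HOXA6 UMIs beside the HH8 graft 4 lay in 1 cell, without which the level was 1.26 CPM. HOXA7 stood at 20.3 against 2.5 CPM, a ratio of 8.13 (4.99 to 13.9). The host tissue itself differed between these libraries. MIXL1, a streak gene, stood at 2248 CPM beside the HH8 graft and 8.0 CPM beside the HH4 graft, CHRD, a node gene, at 1647 and 305 CPM, and CDX4, a posterior gene upstream of Hox expression, at 19.9 and 525 CPM. ADMP, another node gene, was at 82.5 CPM and at 0 UMIs. Condition, dissected region and library cannot be told apart here.

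Within HH8-HH4 the host was at 0.0834 times its 0 hr HOXA2 level at 3 hr (0.0332 to 0.174), and at 0.315 times for HOXA5 (0.0982 to 0.780). These were the 2 of the 5 genes past 2-fold, where 2.04% of genes with at least 100 UMIs were lower, a number that HOXA5 did not reach. HOXA4 was at 0.694 times, HOXA6 at 0.999 times and HOXA7 at 0.828 times, all with intervals that include 1. Among cells low in HINTW, HOXA5 was at a log2 ratio of 0.24 in place of -1.08. HOXA2 was thus lower at 3 hr than at 0 hr in the hosts of HH8-HH4 and higher in the hosts of HH4-HH4. The 2 times are separate pools. Markers of the HH8-HH4 hosts differed between them, CDX4 standing at 131.5 and 19.9 CPM, CHRD at 435 and 1647 CPM and MIXL1 at 1619 and 2248 CPM. Their part in the result was not tested.

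The cells of a pool could be divided into 2 sets of embryos through HINTW, a gene of the female W chromosome. Host cells of HH8-HH4 0 hr with 500 CPM of HINTW or more (776 cells) held HOXA2 at 31.1 CPM (27.1 to 35.5) and the 950 others held it at 7.02 CPM (5.41 to 8.97). HOXA5 was at 6.33 and 0.988 CPM in these cells, and HOXA7 at 21.95 and 26.6 CPM. Of the 285 HOXA2 UMIs in this host, 221 lay in the cells high in HINTW. The HOXA2 ratio of graft to host was 11.2 (8.72 to 14.6) among cells low in HINTW and 1.24 (0.759 to 1.92) among cells high in it, of which the graft had 43. These 43 cells held all 5 genes lower than the other 1986 graft cells. HOXA2 was at 38.4 against 78.65 CPM and HOXA7 at 1315 against 2469 CPM. Whether they were barcodes that mix graft and host cells was not tested. Among cells low in HINTW, the comparison of both hosts at 0 hr had 3 of the 5 genes past 2-fold. HOXA2 had a ratio of 1.45 there (1.05 to 2.01) in place of 4.37.

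Other pools showed the same kind of spread. In the host of HH4-HH4 3 hr, HOXA2 was at 38.45 CPM in cells low in HINTW and 64.5 CPM in those high in it, the reverse of HOXA4. In the graft of HH4-HH4 3 hr HOXA4 was at 80.2 CPM in the 26 cells low in HINTW and 28.0 CPM in the other 46. Sets of embryos within 1 pool thus held different levels of these genes, and the sex of embryos and differences between single embryos cannot be told apart. Among cells low in HINTW the 3 hr ratio of HH8 to HH4 graft was 0.727 for HOXA2, 1.97 for HOXA4, 2.93 for HOXA5, 14.7 for HOXA6 and 1955 for HOXA7 (1 UMI in the HH4 graft), in cluster order. Among cells high in HINTW, of which the HH8 graft had 3, it was 2.46, 6.11, 7.01, 5.62 and 701.5, with HOXA6 below HOXA5.

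HOXA7 separated barcodes with and without eGFP, and from 4 eGFP UMIs upward it rose little with the amount of eGFP at 0 hr and not at 3 hr. In HH8-HH4 0 hr HOXA7 was at 24.5 CPM in barcodes with 0 eGFP UMIs, 158 CPM with 1, 1130 CPM with 2 and 2162 CPM with 3. Between 4 and 9 eGFP UMIs it was at 2313 CPM, and between 10 and 29 at 2517 CPM. The steep part of the rise thus lay below 3 eGFP UMIs, the lower limit of the graft class. In HH8-HH4 3 hr HOXA7 was at 20.3, 35.5 and 111 CPM with 0, 1 and 2 eGFP UMIs, at 523 CPM in the 3 cells with 3, and at 1938, 1886 and 1719 CPM with 4 to 9, 10 to 29 and 30 or more. Graft cells with 0 HOXA7 UMIs had a higher median eGFP level than those with 500 CPM of HOXA7 or more, at 1608 against 1119 CPM at 0 hr and 1926 against 1040 CPM at 3 hr.

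**Figure D3:**
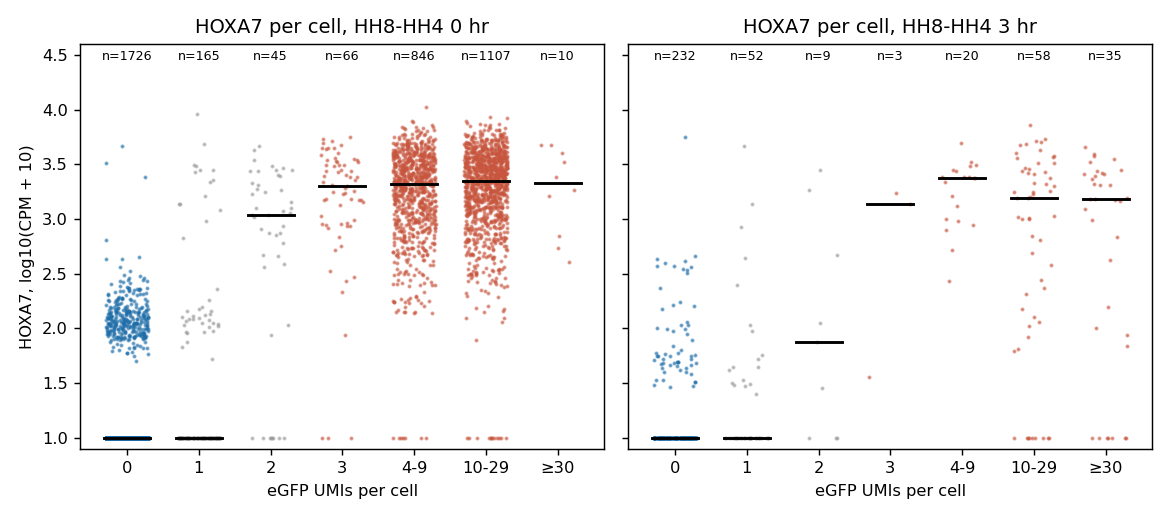
HOXA7 in each cell, as log10 of CPM with 10 added, by the number of eGFP UMIs in the 2 HH8-HH4 libraries, with black lines at medians and n above each class. Most host cells (blue) have 0 UMIs, 91.0% of graft cells (red, 3 or more eGFP UMIs) reach 500 CPM at 0 hr and 69.8% at 3 hr, and graft cells at 0 UMIs are 22 of 2029 at 0 hr and 16 of 116 at 3 hr. Barcodes with 1 or 2 eGFP UMIs are grey.

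Per cell, HOXA7 was close to universal in HH8 grafts at 0 hr and less so at 3 hr. At 0 hr 98.9% of graft cells had a HOXA7 UMI, and 92.0% did after each cell was thinned to 2000 UMIs. After 3 hr the shares were 86.2% (exact binomial interval 78.6 to 91.9) and, thinned, 69.8%. HOXA4 was found in 72.6% of graft cells at 0 hr and 81.9% at 3 hr, or 26.5% and 31.9% after thinning. HOXA2 was found in 48.3% and 44.8%, or 14.7% and 6.03% after thinning. The HOXA4 share did not decline with time under either count, while the thinned shares of HOXA5 (23.1% and 14.7%), HOXA6 (23.5% and 12.9%) and HOXA2 did.

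The lower HOXA7 share at 3 hr came with a group of graft cells that were lower in each of the other 4 genes too. Cells with 0 HOXA7 UMIs were 1.08% of the graft at 0 hr (22 cells) and 13.8% at 3 hr (16 cells, 8.09 to 21.4). Those at 3 hr had a median of 28.5 eGFP UMIs, with HOXA2 at 15.9 CPM, HOXA4 at 39.8 CPM, HOXA5 at 31.8 CPM, 0 UMIs of HOXA6, HOXB8 at 87.5 CPM and CDX4 at 147 CPM. The 22 cells at 0 hr, in contrast, kept HOXB8 at 727 CPM and CDX4 at 1216 CPM. At 3 hr the 81 cells with 500 CPM of HOXA7 or more held HOXA2 at 41.05 CPM, HOXA4 at 187 CPM, HOXA5 at 113 CPM, HOXA6 at 142 CPM, HOXB8 at 1297 CPM and CDX4 at 664 CPM. MEOX1, a marker of somitic mesoderm, was at 465 CPM in the 16 cells and 6.22 CPM in the 81. MSGN1, a presomitic mesoderm gene, went the other way, at 19.9 and 53.5 CPM. The 19 cells with HOXA7 above 0 and under 500 CPM held HOXA4 at 126 CPM, HOXB8 at 451 CPM and MEOX1 at 90.6 CPM. HOXA levels in the 16 cells rest on few UMIs. The classes are cut from HOXA7 itself, so these values describe the cells and are not tested.

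Most HH8 graft cells carried several of the 5 genes together. After thinning to 10000 UMIs, 98.2% of 711 graft cells at 0 hr and 87.6% of 97 at 3 hr had 2 or more of the genes, and 18.3% and 12.4% had all 5. In the HH4-HH4 library of 3 hr, 24.6% of 69 graft cells and 26.6% of 169 host cells had 2 or more, and 0 cells had all 5. In HH4-HH4 at 0 hr, 0 of 616 graft cells had UMIs of 2 or more, which allows a share of up to 0.487% of cells with such UMIs at this depth and does not limit the cells that express the genes. The mean number of genes per cell was 3.60 and 2.99 in HH8 grafts at 0 and 3 hr, and 0.942 and 0.982 in graft and host of HH4-HH4 3 hr.

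**Figure D4:**
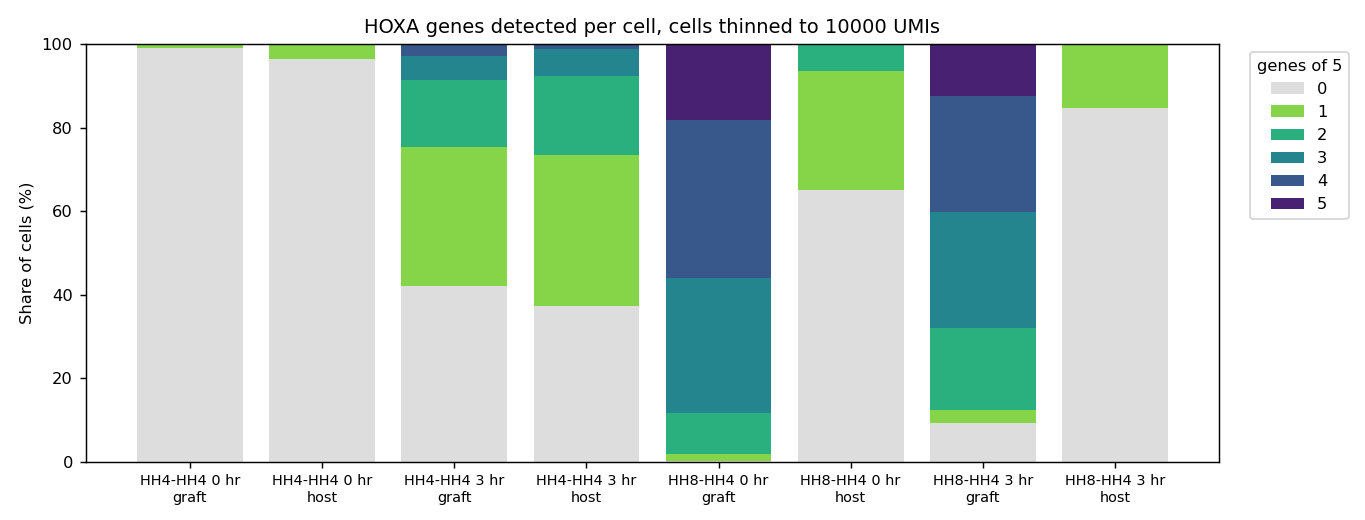
Share of cells (%) in which 0 to 5 of the 5 HOXA genes had a UMI, in each group, with every cell thinned to 10000 UMIs and shallower cells left out. Cells with 2 or more genes make up 98.2% of HH8 grafts at 0 hr and 24.6% of HH4 grafts at 3 hr.

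Within HH8 grafts at 0 hr the genes were found together about as often as their separate shares give. In cells thinned to 2000 UMIs, 28.8% of cells with HOXA2 also had HOXA4 (23.7 to 34.3), against 26.1% of cells without HOXA2 (24.1 to 28.3). A gene was more frequent beside the other in 9 of 10 pairs, and the intervals were apart in 0 pairs. At 3 hr the same held for 8 of 10 pairs at 2000 UMIs and for 10 of 10 at 5000 UMIs, with intervals apart in 2. Thinned to this depth a pair at the level of 1 UMI per gene is seldom seen, and dependence between the genes was not detectable at 0 hr, nor in the 711 cells thinned to 10000 UMIs, where 0 of 10 pairs had intervals apart.

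In HH4-HH4 at 3 hr, cells with HOXA5, HOXA6 or HOXA7 nearly always had a gene from further 3′, and so did most cells of the library. Of graft cells with HOXA5, 27 of 27 also had HOXA2 or HOXA4, and of those with HOXA6, 16 of 16 had a more 3′ gene of the set. In host cells the counts were 70 of 74 for HOXA5, 45 of 47 for HOXA6 and 7 of 7 for HOXA7. Of cells with HOXA4, 28 of 41 in the graft (68.3%) and 76 of 96 in the host (79.2%) also had HOXA2. Of all cells 61.1% in the graft and 72.4% in the host had HOXA2. In HH8 grafts the shares with a more 3′ gene were 85.8% for HOXA5, 93.7% for HOXA6 and 97.3% for HOXA7 at 0 hr. At 3 hr they were 95.0%, 98.6% and 97.0%. HOXA2 was found in 51.1% of HH8 graft cells with HOXA4 at 0 hr, close to its 48.3% of all graft cells. At 3 hr the shares were 47.4% and 44.8%. In HH4-HH4 3 hr the 3′ genes were also the more frequent ones. In HH8 grafts HOXA7 was the most frequent and HOXA2 the least (98.9% and 48.3% of cells at 0 hr). Cells with a gene were deeper (a median of 50139 UMIs with HOXA5 in the HH4-HH4 graft, 46767 without), except those with HOXA7 in the HH4-HH4 host (35690 with, 40194 without). Over all cells, 44 of 72 HH4-HH4 3 hr graft cells had HOXA2 and 13 others had HOXA4 without it. In that host the counts were 131 of 181 and 20. In HH8 grafts at 0 hr, 980 of 2029 cells had HOXA2 and 720 others had HOXA4 without it. A further 183 had HOXA5, and 87 had HOXA6, without a more 3′ gene of the set. The shares in HH8 grafts at 0 hr thus lay near those of all cells. The part of shares and depth in these counts was not tested.

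Among HH8 graft cells at 0 hr, levels of HOXA7 varied most often with cell type markers when classes came from thinned cells. Cells were divided by whether a marker had a UMI after thinning to 2000 UMIs, for 30 markers with at least 20 cells on each side. HOXA7 was more than 1.5-fold lower in cells with a marker for 8 of these and more than 1.5-fold higher for 0. It was at 1543 CPM in the 573 cells with MSGN1, a presomitic mesoderm gene, and 2772 CPM in the others, a ratio of 0.557 (0.543 to 0.570). It was at 1040 CPM in 70 cells with HAND2, a lateral mesoderm gene, and 1455 CPM in 98 cells with TCF15, a somite gene, against 2480 and 2482 CPM without. HOXA4, HOXA5 and HOXA6 were 1.5-fold lower for 1 marker each and HOXA2 for 4, and none of them was 1.5-fold higher for any of the 30. With classes from all UMIs, over 33 markers, HOXA7 was lower for 7 and higher for 0. HOXA2 was then lower for 5 and higher for 2, and HOXA5 lower for 1 and higher for 1. HOXA4 was lower for 2 and HOXA6 for 3, and both were higher for 0.

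HOXA2 had its own pattern in these cells. It was at 37.9 CPM in the 161 cells with TFAP2A, a gene of surface ectoderm and the neural plate border, against 81.2 CPM in those without (0.466, 0.356 to 0.602), whereas HOXA7 was at 2920 and 2389 CPM in the same cells. With MSGN1, HOXA2 was at 85.1 CPM against 74.6 CPM. The 2 ends of the set thus went in opposite directions across both markers. At 3 hr 6 markers had enough cells, and HOXA7 was at 2319 CPM in the 67 cells with CDX4 against 938.5 CPM in the 49 without (2.47, 2.29 to 2.67). Beside CDX4 the ratio was 1.81 for HOXA2, 1.71 for HOXA4, 1.90 for HOXA5 and 1.37 for HOXA6.

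**Figure D5:**
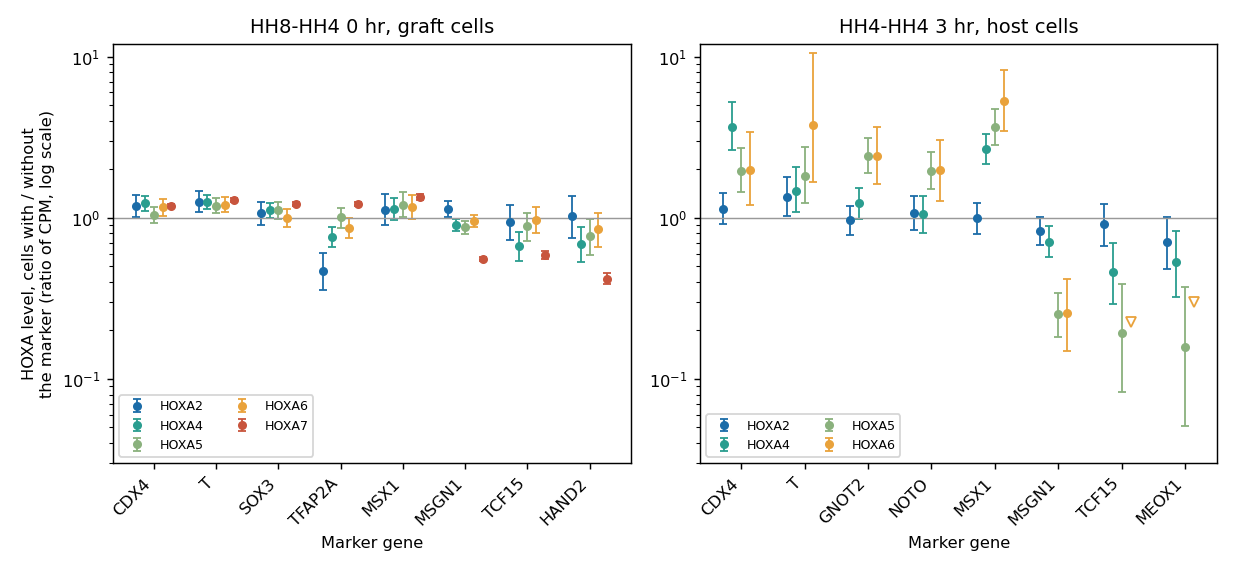
Ratio of HOXA levels between cells with and without a UMI of a marker gene (assigned after thinning to 2000 UMIs, log axis, 95% counting intervals, open triangles at the upper limit where one side had no UMI), in HH8 graft cells at 0 hr (left) and HH4-HH4 host cells at 3 hr (right). On the left HOXA7 is low beside HAND2 and MSGN1 and HOXA2 beside TFAP2A, and HOXA5 and HOXA6 are high beside MSX1 and low beside MSGN1, TCF15 and MEOX1 on the right.

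In host cells of HH4-HH4 3 hr HOXA5 and HOXA6 differed more by marker than HOXA2 did. Beside MSGN1 (97 cells with, 84 without) the ratio was 0.828 for HOXA2 (0.678 to 1.01), 0.713 for HOXA4 (0.570 to 0.889), 0.252 for HOXA5 (0.182 to 0.343) and 0.255 for HOXA6 (0.148 to 0.420). With classes from all UMIs, which leave 33 cells without MSGN1, the HOXA5 ratio was 0.767 (0.565 to 1.06). Beside MSX1, a gene of the posterior streak and ectoderm, with 45 cells, it was 0.998 for HOXA2, 2.68 for HOXA4, 3.65 for HOXA5 and 5.32 for HOXA6. HOXA2 passed 1.5-fold for 0 of 15 markers, HOXA4 for 6, HOXA5 for 9, HOXA6 for 12 and HOXA7 for 11. With classes from all UMIs, HOXA2 was higher for 3 and lower for 2 of 19 markers. The ratios of the more 5′ genes rest on fewer UMIs, 412 for HOXA2 against 102 for HOXA6 and 20 for HOXA7. HOXA5 ranged from 5.72 CPM beside MEOX1 (21 cells) to 68.7 CPM beside MSX1, and HOXA2 from 37.7 to 51.4 CPM in the same cells.

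Genes outside the set with the most similar pattern were sought by Pearson's r of log2(CPM + 1) with the summed set over the 8 groups, among 4745 genes with at least 100 UMIs. The first 5 were HOXB8 (r = 0.995), HOXB5 (0.976), PADI3 (0.964), NEMP2 (0.964) and EGFL7 (0.964). The 8 points are graft and host of 4 libraries, so pairs of points share a library and its free RNA. The 5 genes did not share 1 pattern, with r between members from 0.544 (HOXA2 and HOXA7) to 0.987 (HOXA4 and HOXA5). HOXA7 made up 82.7% of the sum in the HH8 graft at 0 hr, and HOXA2 94.4% in the HH4 graft at 0 hr. HOXB8, a Hox gene of the trunk, stood at 1163 CPM in the HH8 graft at 0 hr and 1000 CPM at 3 hr, and at 0 UMIs in the HH4 graft at 0 hr. EGFL7, a secreted factor of endothelium, stood at 72.8 and 56.7 CPM in the HH8 grafts and between 3.00 and 10.9 CPM in the other groups.

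A list of 78 related genes held other Hox genes, Hox cofactors, chromatin regulators and genes of the retinoic acid, FGF, WNT and CDX pathways, among others. Of these, 46 had a row and 40 had at least 100 UMIs in graft and host of HH8-HH4 0 hr. More than 2-fold higher in the graft were 16 and lower were 5, where the shares over all genes were 3.94% and 7.64%. The Hox genes among those higher were HOXB4 (2.77-fold), HOXB5 (12.2-fold), HOXB8 (78.6-fold), HOXC8 (36.9-fold), HOXC9 (50.4-fold), HOXD4 (20.8-fold), HOXD8 (32.2-fold), HOXA3 (4.75-fold) and HOXA9 (66.6-fold). HOXB8, HOXC8, HOXC9, HOXD8 and HOXA9 thus had ratios within the range of HOXA4 to HOXA7. HOXA3 had a ratio near the 4.41 of HOXA2, and HOXB4 a lower one. The part of transcripts set free from HH8 cells in these ratios was not tested. Within the HOXA cluster, HOXA9 was at 53.4 CPM in the graft, and HOXA10, HOXA11 and HOXA13 had 3, 6 and 11 UMIs.

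Other genes of the list differed between HH8 graft and host at 0 hr in both directions. CDX4 (8.38-fold) and CDX2 (2.48-fold), caudal factors that activate trunk Hox genes, and WNT5A (5.66-fold), FGF3 (2.32-fold), FGF8 (2.43-fold), SP8 (4.19-fold) and LIN28A (2.77-fold) were higher in the HH8 graft. ALDH1A2, the enzyme that makes retinoic acid, stood at 7.97 CPM in the graft and 177 CPM in the host, a ratio of 0.0451 (0.0380 to 0.0531). RDH10, which makes its precursor, was at 0.184 times the host level, CDX1 at 0.232 times, MEIS1, a Hox cofactor, at 0.373 times and SP5, a WNT target, at 0.442 times. HOXB1, the 3′ gene of the HOXB cluster, was at 360 and 326 CPM and did not pass 2-fold.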

How the data were processed

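The deposited values were raw counts of UMIs for each gene in each barcode, which the authors made with Cell Ranger (6.1.1 in the file headers) from 10x Genomics 3′ libraries against a galGal6 reference. Here UMIs were summed per library and class and scaled to 1000000 (Python 3.11.15, numpy 2.4.6, scipy 1.17.1, pandas 2.3.3). Shares have Clopper-Pearson intervals, levels exact Poisson intervals and ratios conditional binomial intervals, at 95%. A fold against 0 UMIs is given as the lower limit of its interval. Thinning drew a fixed number of UMIs per cell without replacement. No doublet caller was run, and an alternative left out barcodes over 2.5 times the group median. The ratio script was tested on simulated data. The members and gene lists were chosen with earlier results of these data known. Named genes were the 5 members in every group, the 5 genes most correlated with their sum, and related genes past 2-fold between HH8 graft and host at 0 hr. The comparison of HH8-HH4 hosts over time and the removal of the top cell of each gene were chosen after seeing the data.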

Additional observations from a re-analysis of the deposited data

Results flagged for a closer look

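At 3 hr, 4 of the genes were higher than at 0 hr in HH4-HH4 grafts and lower in HH8-HH4 grafts. The difference between these changes was not tested because each was 1 library per time, and the times are separate pools. In HH8-HH4 grafts the ratio of 3 hr to 0 hr was 0.464 for HOXA2, 0.706 for HOXA5, 0.773 for HOXA6 and 0.737 for HOXA7, while in HH4-HH4 grafts it was 22.5 for HOXA2 and 147 for HOXA6, with 0 UMIs of HOXA5 and HOXA7 at 0 hr. In host cells HOXA2 was at 0.0834 times and HOXA5 at 0.315 times the 0 hr level in HH8-HH4, against 12.8 and 146 times in HH4-HH4, which was not tested either.

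HOXA7 also appeared in barcodes outside the comparisons. With 1 or 2 eGFP UMIs it stood at 312 CPM in HH8-HH4 0 hr and 45.3 CPM in HH8-HH4 3 hr, against 0.286 CPM and 0 UMIs in the same class of HH4-HH4. In barcodes under 2000 UMIs of HH8-HH4 0 hr it stood at 2044 CPM with eGFP and 689 CPM without. In those of HH8-HH4 3 hr without eGFP it stood at 545 CPM, where host cells above that depth held 20.3 CPM. The matching barcodes of HH4-HH4 gave 0 UMIs.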

How the results depend on the processing

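No paired analysis was possible because each condition is 1 library, no test was made, and replicate number 1 pairs no embryos. The replicate 1 table of HH4-HH4 0 hr could not be used in place of replicate 2, since its identifiers matched 0 symbols. Of 504 values of genes past 2-fold under the alternatives, 501 kept their direction. HOXA7 in HH4-HH4 hosts over time was at a log2 ratio of -0.36 in cells thinned to 2000 UMIs, and HOXA5 in HH8-HH4 hosts over time at 0.24 in cells under 500 CPM of HINTW. HOXA7 in HH4-HH4 grafts thinned to 2000 UMIs had 0 UMIs at both times, and so no direction. Of the 5 genes, the number past 2-fold in HH8 grafts over time was 1, and was 3 with graft cells from 1 eGFP UMI and 0 with 10 CPM added. In HH4 graft against host at 0 hr it was 0, and 1 with graft cells from 10 eGFP UMIs, thinned cells, scaling without 57 ribosomal protein genes and eGFP, low HINTW, or the top cell of each gene left out. At 3 hr it was 0, and 2 in thinned cells and 1 at low HINTW. Between hosts at 0 hr it was 5, and 1 with 10 CPM added and 3 at low HINTW. In HH8-HH4 hosts over time it was 2, and 1 with a minimum of 1000 UMIs, 10 CPM added, deep barcodes left out, cells averaged by their own CPM, or low HINTW. Thinned to 2000 UMIs, shares of cells in HH8 grafts at 0 hr were 14.7% for HOXA2, 26.5% for HOXA4, 23.1% for HOXA5, 23.5% for HOXA6 and 92.0% for HOXA7, and at 3 hr 6.03%, 31.9%, 14.7%, 12.9% and 69.8%. Markers with HOXA7 1.5-fold apart in HH8 grafts at 3 hr numbered 3 of 6, all higher, and 9 of 20 when classes used all UMIs, 1 higher and 8 lower. The cause of these shifts was not tested. Depth limits the HH4 groups at 0 hr, where 3 UMIs equal 0.285 CPM in the graft and 0.113 CPM in the host.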
